A study of Danio rerio with 6 samples.

Results

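The set described here consists of 385 splicing events in which an intron was kept in the RNA or an exon was joined at an alternative boundary, out of 2075 events that the authors called different between *sart3* mutants and their siblings. They comprised 159 retained introns in 149 genes, 81 alternative 5′ splice sites in 78 genes and 145 alternative 3′ splice sites in 140 genes, and together they lay in 353 genes, of which 348 were annotated as protein coding. Membership meant being listed in the deposited tables of these 3 kinds. Every event was thus chosen by its inclusion in these same mutant and sibling libraries, through the authors' own comparison, and the differences in inclusion given below are a description of the chosen events, with no test. Events that missed the authors' limit were not analysed here. The smallest difference between group means among the members was 0.0331 for retained introns, 0.0718 for alternative 5′ sites and 0.00269 for alternative 3′ sites.

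RNA was extracted from whole zebrafish larvae at 4 dpf, 3 libraries from *sart3* smu471 mutants and 3 from WT siblings of the same heterozygote intercrosses. The smu471 allele carries a germline nonsense mutation in *sart3*, and the embryos were sorted by high-resolution melting genotyping. No source says how many larvae went into a library. The genome build is GRCz11 according to the submitters' processing notes.

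Sart3 is an RNA-binding protein that helps U4 and U6 small nuclear RNPs to find each other again after each round of splicing, so that they can enter a new spliceosome. Removing an intron requires a 5′ splice site at its start and a 3′ splice site at its end. When an intron is left in, the RNA often stays in the nucleus or carries an early stop codon, whereas a shift of a splice site lengthens or shortens an exon by a stretch between both competing sites. A shift whose length is a multiple of 3 keeps the reading frame of coding sequence.

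Between 16008788 and 18310233 reads were counted on genes per library. *sart3* itself was at 68.4 ± 2.1 CPM (counts per 1000000 reads counted on genes; SD, n = 3) in siblings and 50.3 ± 2.79 CPM (SD, n = 3) in mutants, a log2 fold change of -0.44 (edgeR adjusted p = 0.0023). Defining markers of all 8 tissues examined were detected, and none of the markers found by name was at 0. The summed markers of skeletal muscle reached 19474 to 21911 CPM in siblings and 24511 to 25715 CPM in mutants, whereas those of photoreceptors were at 4165 to 5191 CPM against 1474 to 1708 CPM. Exocrine pancreas markers were at 2169 to 2276 CPM in siblings and 55.2 to 66.5 CPM in mutants, and 4 of 5 passed the edgeR test as lower. So did 6 of 6 photoreceptor, 4 of 4 lens, 5 of 5 neural progenitor, 3 of 5 neuron and 2 of 4 liver markers. In skeletal muscle and in red blood cells, 4 of 5 chosen markers were found by name. Of those of skeletal muscle 2 were higher and 1 lower, and no red blood cell marker was called. Summed red blood cell markers were at 258 to 344 CPM in siblings and spread from 186 to 706 CPM in mutants. Over all 24809 genes tested, 13.6% were called higher and 14.3% lower. In such bulk samples fewer cells of a type and less RNA per cell cannot be told apart, and the part of these tissue differences in the splicing values was not tested.

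Inclusion is the share of RNA that holds the intron, or that uses the site giving the longer exon. It was computed in each library from the reads of the inclusion form and of the skipping form, each divided by the effective length of its form. The inclusion form exceeded the skipping form by exactly the length of the intron or extension in all 385 events, so that reads lying inside the intron or extension were counted as well as junction reads. A deposited skipped or mutually exclusive exon lay inside 1 retained intron, 2 alternative 5′ extensions and 2 alternative 3′ extensions. Reads of such an exon can count for the inclusion form without the whole stretch being in the RNA. In 190 events every library had at least 20 reads for both forms together, and these are called covered events below. In 53 events at least 1 library had no read at all and hence no value.

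The 3 kinds of event went in different directions. Mean inclusion was higher in mutants in 140 of 159 retained introns (88.1%), in 52 of 81 alternative 5′ sites (64.2%) and in 57 of 145 alternative 3′ sites (39.3%). For comparison, the deposited skipped exons were included more in mutants in 334 of 1327 events (25.2%). For the mutually exclusive exons the deposited inclusion level was higher in mutants in 167 of 363 events (46.0%). In such a pair more of either exon means less of the other, so that share gives no direction. Mutant and sibling libraries did not overlap in 100 retained introns (62.9%), 36 alternative 5′ sites (44.4%) and 57 alternative 3′ sites (39.3%), where 44.7% of all 2075 deposited events showed no overlap. Groups stood apart in 76 of 84 covered introns and in 24 of the 75 introns with fewer reads. For alternative 5′ sites the numbers were 25 of 43 and 11 of 38, and for alternative 3′ sites 40 of 63 and 17 of 82. In all these shares, an event with a library without a value was never counted as apart. Such events were 24 retained introns, 8 alternative 5′ sites and 21 alternative 3′ sites, all among those with fewer reads. The contrast by reads was thus partly fixed by the counting.

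**Figure D1:**
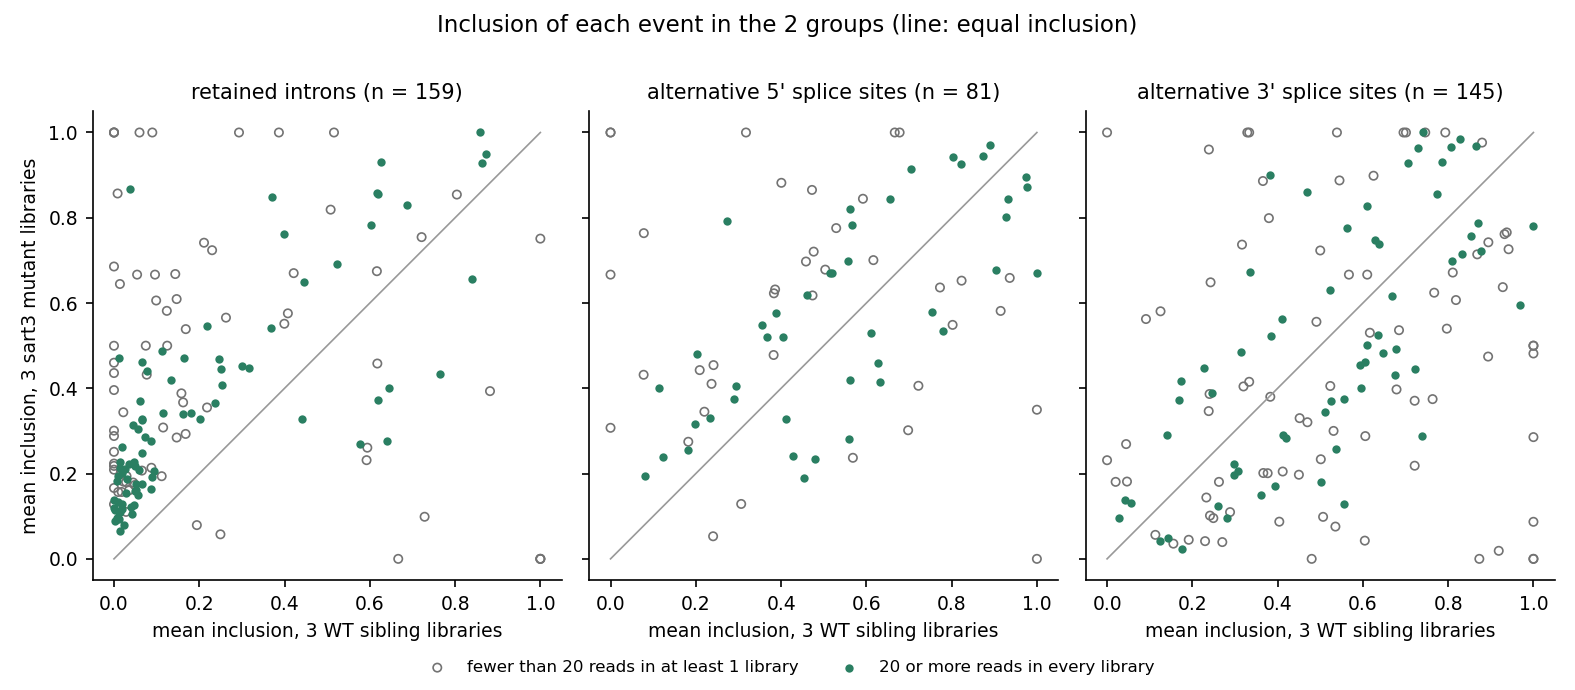
Each point is 1 event, with its mean inclusion (0 to 1) in WT siblings on the horizontal axis and in *sart3* mutants on the vertical axis, over the libraries that have a value. Filled points have at least 20 reads in every library, and the line marks equal inclusion. Retained introns crowd at the left edge and above the line (140 of 159), while alternative 3′ sites lie more often below it (88 of 145).

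Most retained introns with higher inclusion in mutants were nearly always removed in siblings. Mean inclusion in siblings was under 0.1 in 88 of these 140 introns and above 0.5 in 14, with a median of 0.063, and the median in mutants was 0.334. Of the 19 introns with lower inclusion in mutants, 16 had a sibling mean above 0.5, and the medians were 0.645 in siblings and 0.270 in mutants. Their differences ranged from -1 to -0.111, so a sibling mean under 0.1 was not possible for them. Inclusion can only fall from a level at least as high as the decrease, so sibling levels are tied to direction and nothing is read from this contrast. Among covered introns the median difference was 0.166 for the 77 with higher inclusion and -0.246 for the 7 with lower inclusion. For all 84 covered introns together, the median SD between libraries was 0.0263 in siblings and 0.0448 in mutants.

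The retained introns were short. Their median length was 101 bases (quartiles 81 and 242), and 79 of 159 (49.7%) were under 100 bases. The introns flanking the deposited alternative 5′ sites had a median of 2121 bases, those flanking alternative 3′ sites 995 bases and those flanking skipped exons 2344.5 bases, with 6.33%, 9.09% and 3.98% under 100 bases. Length was not itself a criterion of the choice, but it enters the inclusion values and the reads behind them through the form lengths. Lengths of introns that were not listed were not analysed here. Length differed between directions: introns with higher inclusion had a median of 95.5 bases and introns with lower inclusion a median of 414 bases. Of the 79 introns under 100 bases, 75 were retained more in mutants and 4 less. Among those of at least 1000 bases the numbers were 7 and 4. All 40 covered introns under 100 bases had higher inclusion in mutants, while the 7 covered introns with lower inclusion ranged from 124 to 3995 bases with a median of 848. A length divisible by 3 occurred in 64 of 159 retained introns (40.3%), against 80.2% of the alternative 5′ extensions and 86.9% of the alternative 3′ extensions.

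**Figure D2:**
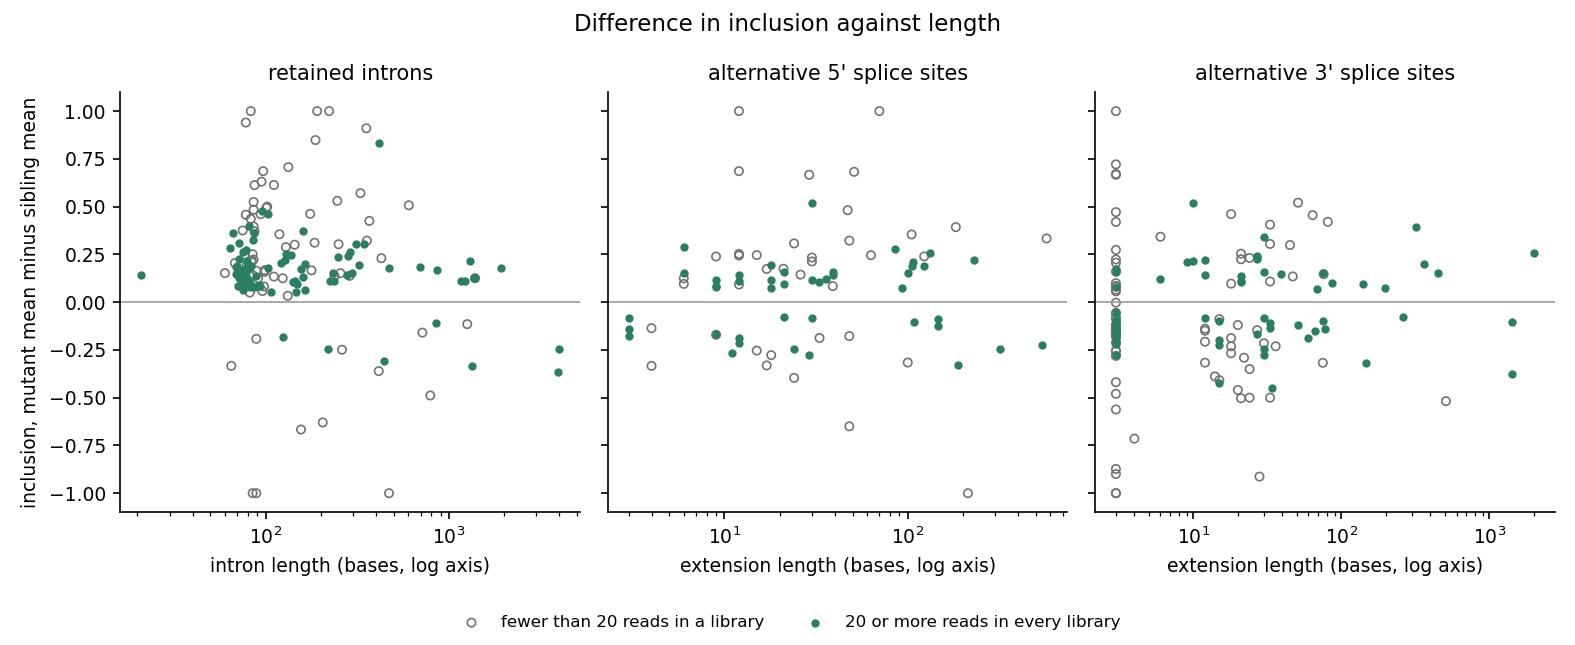
The mutant mean minus the sibling mean of inclusion is plotted against the length of the intron or extension in bases (log axis), 1 point per event, filled where every library has at least 20 reads. Introns under 100 bases lie above 0 in 75 of 79 cases, and the column at 3 bases in the right panel holds 61 alternative 3′ sites, 43 of them below 0.

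The 6 covered introns with the largest increase in mean inclusion lay in *rps2*, *ccnt2a*, *clasrp*, *ttc19*, *papolg* and *ttpa*. In *rps2*, which encodes a protein of the small ribosomal subunit, a 413-base intron (chr3:18398904-18399316) had an inclusion of 0.00801, 0.0964 and 0.009 in the sibling libraries and of 1, 0.606 and 1 in the mutant libraries. The groups did not overlap, and 1 library of each group stood apart from the others of its group. This event drew on few of the reads of its gene: 1875 spliced reads were counted in siblings and 24 in mutants, while the gene had 124574 and 80111 counts. All 24 came from 1 mutant library, so the inclusion of 1 in the others describes these junctions only and not the RNA of *rps2* as a whole. Read mapping and alleles at the site were not tested.

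*ccnt2a* encodes cyclin T2, a partner of the kinase that releases paused RNA polymerase II. Its 95-base intron (chr9:23235688-23235782) was included at 0.411, 0.330 and 0.368 in siblings and at 0.825, 0.827 and 0.892 in mutants. Libraries of each group were close together, and the groups stood wide apart. The gene as a whole was at 74.3 ± 2.32 CPM (SD, n = 3) in siblings and 214 ± 7.8 CPM (SD, n = 3) in mutants.

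*clasrp* codes for an SR-type protein that binds a CLK kinase, an enzyme that phosphorylates splicing factors. Retention of its 103-base intron (chr18:36629993-36630095) was 0.0193, 0 and 0.0151 in siblings against 0.496, 0.639 and 0.275 in mutants. The intron was almost absent from sibling RNA, where only 3 reads of the inclusion form were found over all 3 libraries, and it varied widely between mutant libraries without reaching the sibling range. The remaining 3 introns were included at 0.0649 ± 0.0269 in siblings and 0.463 ± 0.17 in mutants for *ttc19* (81 bases; a factor for mitochondrial complex III), 0.113 ± 0.0107 and 0.488 ± 0.044 for *papolg* (159 bases; a poly(A) polymerase), and 0.398 ± 0.0941 and 0.761 ± 0.108 for *ttpa* (86 bases; the transfer protein for vitamin E), all as mean ± SD with n = 3. No library of 1 group reached into the range of the other in any of them.

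All 7 covered introns with lower inclusion in mutants had groups that did not overlap. They lay in *arglu1a*, *rbm5*, *nxf1*, *ddx5*, *fga* and, with 2 introns, *trnau1apb*. Of these genes, *arglu1a*, *rbm5* and *ddx5* encode RNA-binding regulators of splicing or transcription and *nxf1* the main export receptor for mRNA, and in mammals the homologs of *arglu1a* and *nxf1* are known for introns that are kept in part of their RNA.

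The 3914-base intron of *arglu1a* (chr9:26090087-26094000) had an inclusion of 0.621, 0.708 and 0.594 in siblings and of 0.251, 0.256 and 0.325 in mutants. Every mutant library was thus far under the lowest sibling. In *nxf1* the longest intron of the set (3995 bases, chr21:26668599-26672593) was at 0.674, 0.694 and 0.567 in siblings and at 0.389, 0.322 and 0.491 in mutants. Here the gap between the lowest sibling and the highest mutant was small beside the distance of the means. A 1335-base intron of *rbm5* (chr6:53276617-53277951) gave 0.733, 0.766 and 0.795 in siblings and 0.392, 0.497 and 0.408 in mutants. Its groups were tight and well separated.

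For *ddx5*, an RNA helicase, inclusion of an 848-base intron (chr3:25271172-25272019) was 0.442, 0.458 and 0.420 in siblings and 0.346, 0.318 and 0.322 in mutants. This was the smallest of the 7 decreases, yet it rested on the most reads, at least 4664 in each library, and the spread within each group was a small part of it. *fga* encodes the fibrinogen alpha chain, a clotting protein made in the liver. Its 220-base intron (chr1:10066968-10067187) was at 0.605, 0.662 and 0.588 in siblings and at 0.367, 0.373 and 0.377 in mutants. Mutant libraries were nearly identical to each other. Summed liver markers were at 3822 to 4420 CPM in siblings and 3085 to 4317 CPM in mutants and overlapped. Of the 4 liver markers, 2 were called lower in mutants by edgeR's quasi-likelihood test, as were 14.3% of all genes tested. The part of the liver markers in the *fga* value was not tested.

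**Figure D3:**
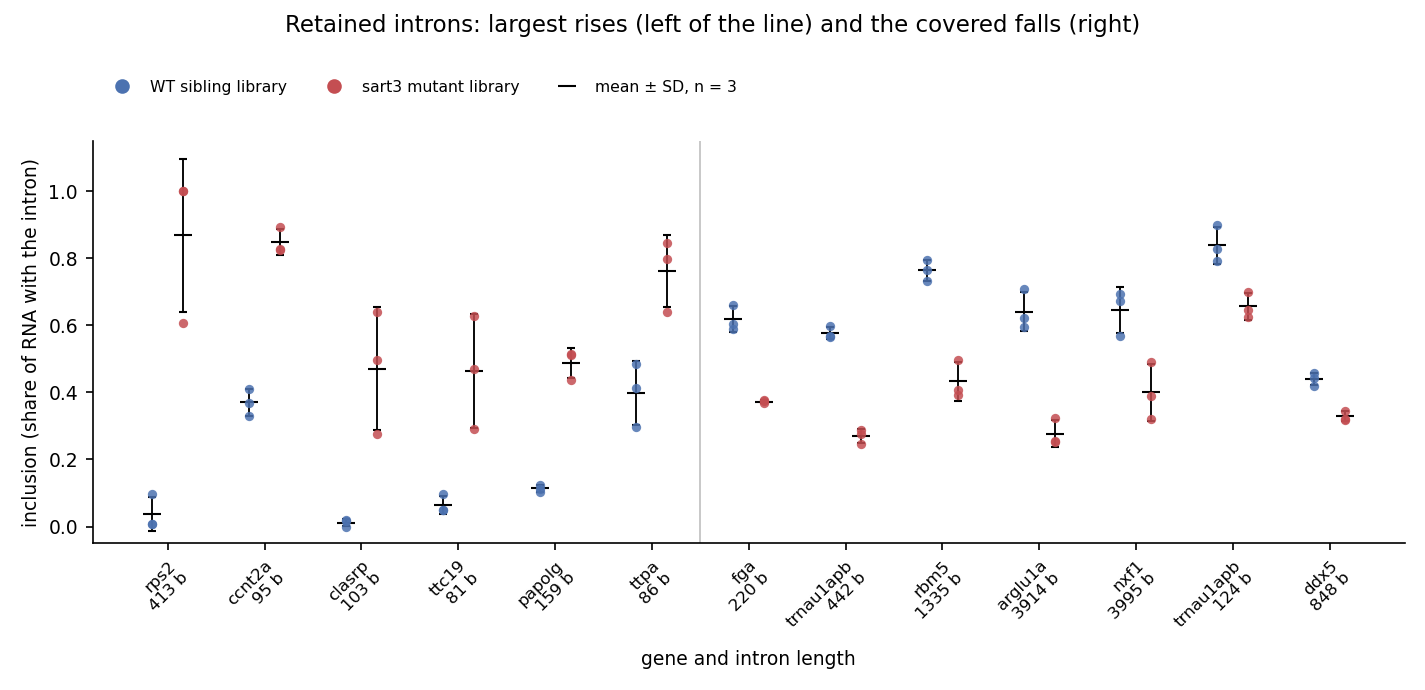
Inclusion (0 to 1) of 13 retained introns, each named by its gene and its length in bases (b). Points are single libraries, WT siblings in blue and *sart3* mutants in red, and the dash and bar give the mean ± SD of 3 libraries. The 6 largest increases stand left of the line and the 7 covered decreases right of it, and in none do the groups overlap.

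Because inclusion is a ratio, the reads of each form were also scaled to the gene counts of its group, as reads per 1000000 gene counts (RPM), and summed over the libraries of a group. Among the 77 covered introns with higher inclusion, the inclusion form was higher and the spliced form lower in mutants in 48, both forms were higher in 23, and both were lower in 6. The median fold, mutants over siblings, was 3.88 for the inclusion form and 0.783 for the spliced form over the 75 introns that had reads of the inclusion form in siblings. In all 7 covered introns with lower inclusion the inclusion form was lower and the spliced form higher in mutants, with median folds of 0.601 and 1.62.

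The genes of these 7 introns did not share 1 pattern of expression. *arglu1a* showed 256 RPM of the inclusion form in siblings and 96.7 in mutants, while its spliced form was at 5.26 and 9.29. Spliced reads numbered 96, 77 and 109 in siblings and 166, 159 and 139 in mutants, all mutants above all siblings, although counts on the whole gene were 244 ± 11.5 CPM (SD, n = 3) in siblings and 127 ± 8.27 CPM (SD, n = 3) in mutants. Total counts and spliced reads of *arglu1a* thus went in opposite directions. In *rbm5* the inclusion form was at 70.2 RPM in siblings and 17.2 in mutants and the spliced form at 2.16 and 2.32, and its single libraries held 43, 39 and 34 spliced reads in siblings and 43, 27 and 46 in mutants. Spliced reads of *rbm5* overlapped, whereas its gene counts were at 193 ± 3.11 CPM in siblings and 92.8 ± 1.42 CPM in mutants (SD, n = 3). *nxf1* was at 124 ± 15 and 79.4 ± 2.69 CPM, *ddx5* at 806 ± 24.8 and 763 ± 29.4 CPM and *fga* at 218 ± 39.6 and 209 ± 37.1 CPM (SD, n = 3), where *nxf1* was lower in all mutants and the other pair overlapped. How reads inside these introns were treated in the gene counts is not given in the sources used here.

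**Figure D4:**
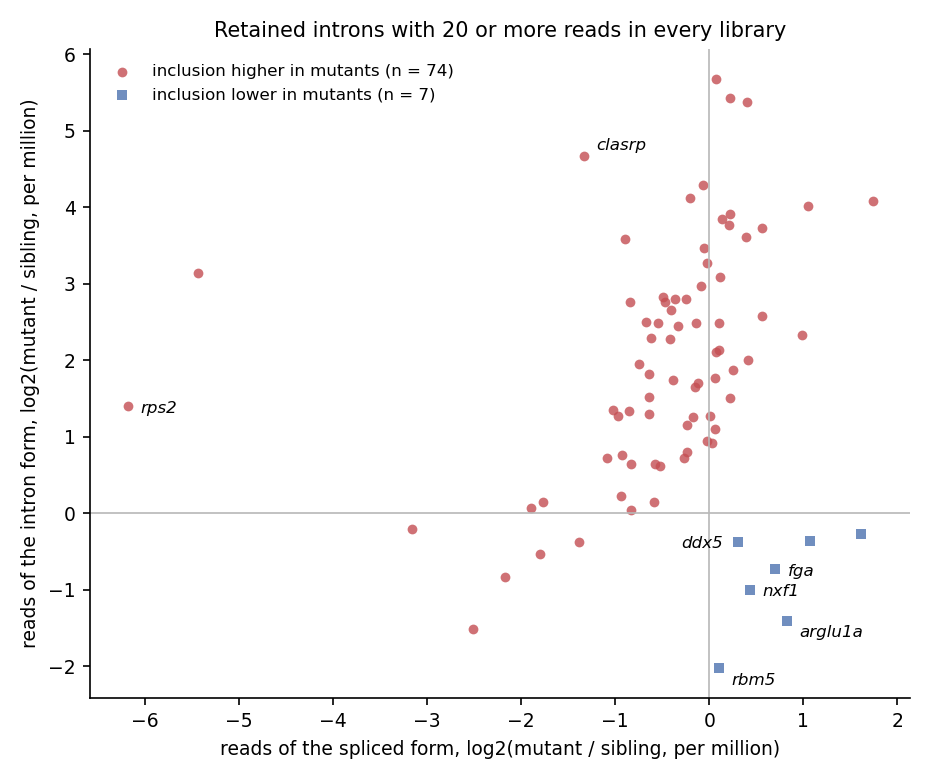
For 81 covered retained introns, the log2 ratio of mutants to siblings in RPM is plotted for the spliced form (horizontal) and for the form with the intron (vertical), from reads summed over 3 libraries. The 3 covered introns without reads of a form in a group are left out. All 7 introns with lower inclusion (squares) sit at the lower right, while *rps2*, at the far left, had 24 spliced reads over the mutants.

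*rbm39a*, which encodes an SR-like partner of U2AF, held 4 retained introns, all with higher inclusion in mutants and none with overlapping groups. The largest of them, 471 bases long (chr11:24342117-24342587), was at 0.156, 0.171 and 0.158 in siblings and at 0.357, 0.325 and 0.337 in mutants, about even within each group. The others, of 73, 92 and 81 bases, had means of 0.0509, 0.00301 and 0.0657 in siblings and 0.177, 0.0899 and 0.175 in mutants. These same 471 bases are part of a 537-base extension at an alternative 5′ site (chr11:24342117-24342653), for which the computed inclusion was 0.924, 0.860 and 0.926 in siblings and 0.638, 0.652 and 0.744 in mutants. A deposited skipped or mutually exclusive exon lies inside this extension, and the 471 bases were mostly removed. These values therefore do not give the share of RNA that holds all 537 bases. Reads of the shorter form at that site numbered 54 over the siblings and 327 over the mutants. An alternative 3′ site of *rbm39a* with a 1414-base extension was also used less for the longer exon, at 0.609 ± 0.021 in siblings and 0.502 ± 0.0329 in mutants (SD, n = 3).

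*hnrnpr*, an hnRNP protein gene, had a 342-base retained intron (chr19:80980-81321), a 324-base intron with the same 3′ end (chr19:80980-81303), and an alternative 5′ site whose 18-base extension (chr19:81304-81321) is the stretch between both. Inclusion of the 342-base intron was 0.156, 0.170 and 0.169 in siblings and 0.505, 0.444 and 0.461 in mutants. Means for the 324-base intron were 0.252 ± 0.0198 and 0.446 ± 0.0738, and for the extension 0.355 ± 0.00658 and 0.547 ± 0.0378 (SD, n = 3). All 3 were higher in every mutant library than in any sibling. They share reads, so they are not independent of each other.

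*trnau1apb* encodes a protein associated with the tRNA for selenocysteine. Its 442-base intron (chr2:24314542-24314983) was kept at 0.569, 0.597 and 0.566 in siblings and 0.247, 0.276 and 0.287 in mutants. Both pieces into which an alternative 5′ site divides this intron were lower as well: the 124-base intron (chr2:24314542-24314665) was at 0.839 ± 0.0555 and 0.656 ± 0.0395, and the 318-base extension (chr2:24314666-24314983) at 0.481 ± 0.0183 and 0.234 ± 0.0241 (SD, n = 3). Another intron of the gene, 247 bases long (chr2:24314032-24314278), went the other way, with 0.623, 0.554 and 0.681 in siblings and 0.872, 0.825 and 0.874 in mutants. None of these 4 comparisons overlapped between groups. The 442-base intron, the 124-base intron and the 318-base extension share reads, so they are not independent of each other. In its reads the 442-base event differed from *arglu1a*, since the inclusion form was at 30.7 and 25.5 RPM while the spliced form was at 5.71 in siblings and 17.4 in mutants.

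In all, 7 genes held more than 1 retained intron, with 17 introns between them, and in 6 of the 7 all introns of a gene had the same direction, the exception being *trnau1apb*. In several of them, such as *hnrnpr* and *max*, the introns overlap each other almost fully and share reads. As 88.1% of all retained introns were higher in mutants, nothing is read from this agreement. 14 retained introns overlapped another event of the set.

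Alternative 5′ splice sites were less one-sided. The longer exon was used more in mutants in 52 events and less in 29, and in 26 and 17 of the covered events. The extensions had a median of 26 bases, with a range of 3 to 572, and their median hardly differed between directions (29.5 bases for higher use and 24 for lower use). The largest covered increase was in *dync1li1*, which encodes a light intermediate chain of the dynein motor. Use of its 30-base extension (chr19:19006097-19006126) was 0.276, 0.239 and 0.301 in siblings and 0.847, 0.798 and 0.734 in mutants. Thus the preferred site was reversed, from the shorter exon in all siblings to the longer exon in all mutants.

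*pkp4*, coding for a plakophilin of cell junctions, had a 6-base extension used at 0.0689, 0.0893 and 0.182 in siblings and 0.383, 0.373 and 0.447 in mutants, without overlap. *eif4a2*, a helicase of translation initiation, had an 85-base extension at 0.204 ± 0.0451 in siblings and 0.481 ± 0.0473 in mutants (SD, n = 3), also without overlap. In *hnrnph1*, another hnRNP gene, a 132-base extension was at 0.456, 0.449 and 0.783 in siblings and 0.782, 0.870 and 0.809 in mutants. There, the highest sibling lay just above the lowest mutant.

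Of the 3 largest covered decreases at 5′ sites, *mapk10* (a Jun N-terminal kinase of neurons; 29 bases) was at 0.557, 0.644 and 0.480 in siblings and 0.386, 0.213 and 0.247 in mutants. *cap2*, an actin regulator, had an 11-base extension at 0.374, 0.373 and 0.614 in siblings and 0.0435, 0.274 and 0.248 in mutants. Both were separate between groups, with wide spread within them. *tmed8* (187 bases) was at 1 in every sibling and at 0.614, 1 and 0.399 in mutants, so that 1 mutant library equalled the siblings. A 78-base retained intron inside this *tmed8* extension was at 0.00597 ± 0.0103 in siblings and 0.183 ± 0.134 in mutants (SD, n = 3). A deposited skipped or mutually exclusive exon also lies inside the extension. The value of 1 therefore does not mean that all sibling RNA held its 187 bases.

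For covered 5′ sites, the reads of both forms had median folds of 1.28 (longer exon) and 0.684 (shorter exon) where the longer exon was used more, and of 1.003 and 2.12 where it was used less. In the latter, reads of the shorter form were higher in mutants in 16 of 17 events, while reads of the longer form were higher in 9.

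Alternative 3′ splice sites leaned to the shorter exon in mutants. The longer exon was used less in 88 events and more in 57, and in 36 and 27 of the covered events. Much of this lay in the shortest shifts. An extension of 3 bases, the distance between tandem acceptors, made up 61 of the 145 events (42.1%) but 3 of the 81 alternative 5′ sites. Use of the longer exon was lower in mutants in 43 of these 61 and higher in 18, and in the covered ones in 15 and 3. The other 84 alternative 3′ sites were 39 higher and 45 lower together (covered: 24 and 21), but their length classes differed. Extensions of 12 to 30 bases were used more in 15 events and less in 28 (covered: 10 and 9). Those of 4 to 11 bases were 5 higher and 1 lower, those of 31 to 99 bases 13 and 11. At 100 bases or more the numbers were 6 and 5. The lean to the shorter exon was thus not confined to 3-base shifts. Groups did not overlap in 15 of the 61 tandem acceptors, beside 57 of all 145 alternative 3′ sites (39.3%) and 44.7% of all 2075 deposited events. Only 18 of the 61 were covered, so nothing is read from this count. With 3-base shifts left aside, 65 of 84 extensions (77.4%) still had a length divisible by 3.

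Examples among the tandem acceptors are *thbs1b*, a thrombospondin gene, where the longer exon was used at 0.347, 0.503 and 0.386 in siblings and 0.264, 0.317 and 0.291 in mutants, and *zcchc8*, part of a complex that brings nuclear RNA to the exosome, with 0.806, 0.806 and 0.812 in siblings and 0.700, 0.670 and 0.729 in mutants. In both, all mutants lay under all siblings by a modest distance. For *clk2a*, which codes for a kinase of SR proteins, the values 0.121, 0.157 and 0.0613 in siblings and 0.0654, 0 and 0.103 in mutants overlapped, with as few as 6 reads in a library.

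The largest covered decreases at 3′ sites were in *gng2*, *tcf7l2* and *rsrp1*. *gng2*, a gamma subunit of G proteins, had a 34-base extension (chr13:12087501-12087534) at 0.712, 0.766 and 0.740 in siblings and 0.266, 0.320 and 0.276 in mutants. Hence the dominant exon form switched in every library. *tcf7l2*, a transcription factor of Wnt signaling, used a 15-base extension (chr12:30989971-30989985) at 0.554, 0.564 and 0.547 in siblings and 0.142, 0.166 and 0.0801 in mutants. *rsrp1*, which encodes an arginine- and serine-rich protein, had a 1421-base extension (chr13:45470580-45472000) at 0.974, 0.955 and 0.979 in siblings and 0.565, 0.589 and 0.629 in mutants. In siblings nearly all *rsrp1* RNA at this site held the extension, and reads of the shorter form numbered 42 there and 553 in mutants.

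Increases were seen in *tssc4* (10 bases), whose human homolog is a chaperone of U5 snRNP assembly, at 0.782, 0.0808 and 0.284 in siblings and 1, 0.853 and 0.846 in mutants. Sibling libraries were scattered over most of the scale, so the size of this difference is poorly fixed. Another covered event with the same 10 bases of *tssc4* was at 0.888, 0.238 and 0.701 in siblings and 0.910, 0.696 and 0.875 in mutants. There the groups overlapped. *epn1*, an endocytic adaptor, had a 30-base extension (chr16:12743857-12743886) at 0.273, 0.387 and 0.343 in siblings and 0.673, 0.652 and 0.697 in mutants, with narrow and separate groups. For *wu:fc17b08* (318 bases), the means were 0.468 ± 0.187 in siblings and 0.860 ± 0.194 in mutants (SD, n = 3), and for *matr3l1.1*, a matrin 3-like gene with the longest extension of 1998 bases, 0.740 ± 0.228 and 1 ± 0. Both overlapped between groups. A deposited skipped or mutually exclusive exon lies inside the *wu:fc17b08* extension.

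**Figure D5:**
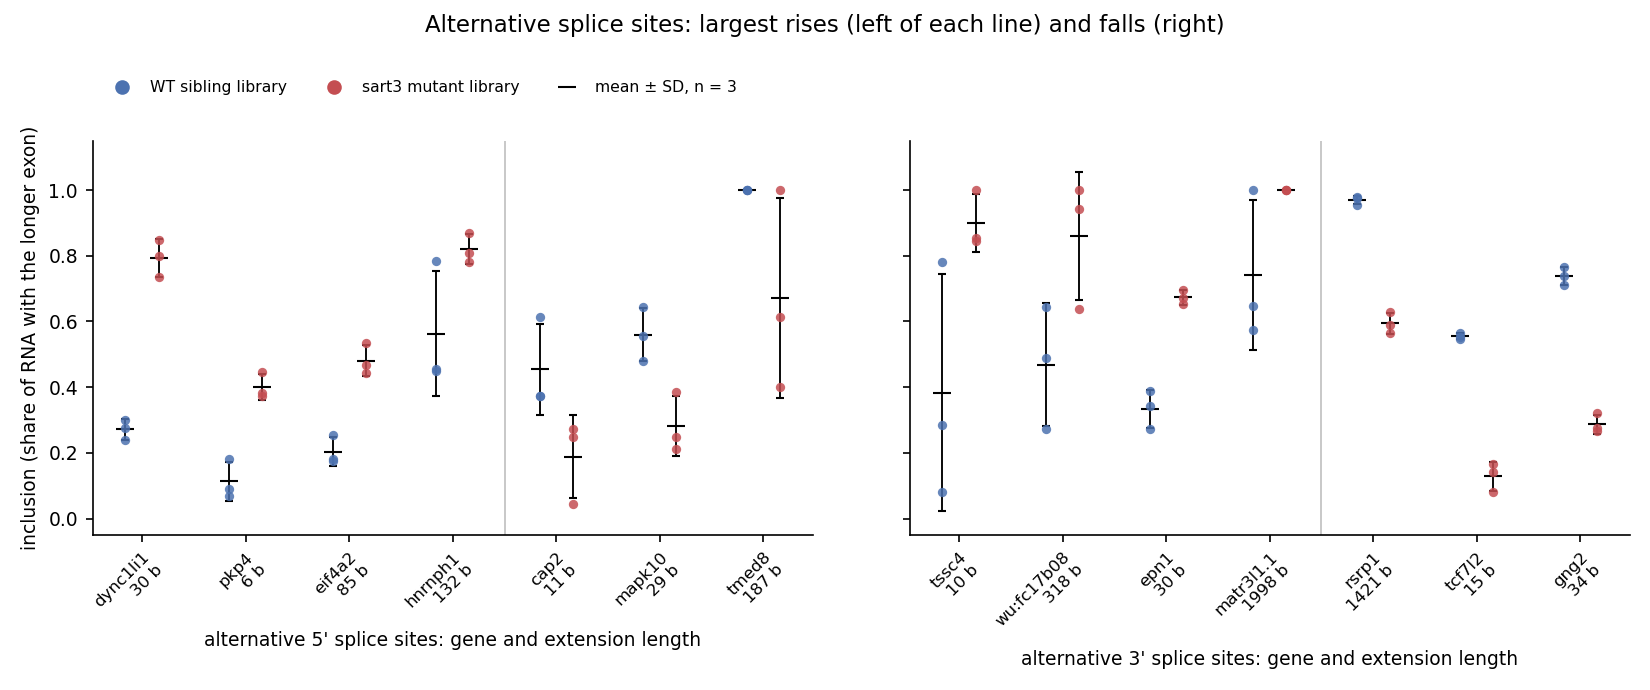
Use of the longer exon (0 to 1) at the alternative 5′ sites (left) and 3′ sites (right) with the largest covered increases (left of each line) and decreases (right of it), named by gene and extension length in bases (b). Points are single libraries, WT siblings in blue and *sart3* mutants in red, and the dash and bar give the mean ± SD of 3 libraries. *dync1li1*, *gng2* and *tcf7l2* show separate groups, while *hnrnph1*, *tmed8*, *wu:fc17b08* and *matr3l1.1* overlap.

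Position along the gene differed between kinds. Measured from the 5′ end (0) to the 3′ end (1) of the gene, the median was 0.44 for retained introns, 0.51 for alternative 5′ sites and 0.63 for alternative 3′ sites. 51 of the 145 alternative 3′ sites lay in the last stretch of their gene, from 0.75 to 1, 37 of them with lower use of the longer exon in mutants.

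Over the whole table, 353 of 37898 genes (0.931%) carried at least 1 of the events, and 346 of the 24809 genes tested for expression (1.39%). The share was 12 of 118 genes on the SR and hnRNP list, 5 of 110 on the spliceosome list, 5 of 79 on the p53 signaling list, 3 of 69 on the RNA surveillance list and 8 of 132 on the chromatin list. Lists and events were chosen with results of these libraries known, so these shares are a description and nothing is read from them. The 12 SR and hnRNP genes held 20 of the events: 6 retained introns in 2 genes, all with higher inclusion, 8 alternative 5′ sites (5 higher, 3 lower) and 6 alternative 3′ sites (2 higher, 4 lower). Besides the genes above, *qkia*, an RNA-binding regulator of splicing in muscle and glia, used a 123-base 5′ extension at 0.431, 0.330 and 0.402 in siblings and 0.568, 0.545 and 0.618 in mutants. *taf15* (21 bases) was at 0.974 ± 0.000548 in siblings and 0.896 ± 0.0298 in mutants at a 5′ site, and *celf1* (12 bases) at 0.247 ± 0.031 and 0.389 ± 0.0201 at a 3′ site (SD, n = 3). The groups were separate in all 3 of these. Over the 20 events, 16 had no overlap and 4 overlapped, namely 5′ sites of *celf1*, *fubp1* and *hnrnph1* and a 3′ site of *clk2a*. Of all 2075 deposited events 44.7% had no overlap. Among covered events it was 76 of 84 retained introns, 25 of 43 alternative 5′ sites and 40 of 63 alternative 3′ sites. Several of the 20 lie in *rbm39a* and *hnrnpr*, and some of these share reads, so nothing is read from the count. The overlapping site of *celf1* (3 bases) was at 0.611 ± 0.0328 in siblings and 0.530 ± 0.0681 in mutants (SD, n = 3), opposite in sign to its 3′ site.

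The spliceosome list had 5 events in 5 genes, all with lower inclusion: retained introns in *rbm5*, *ddx5* and *zrsr2* and alternative 3′ sites in *u2af2a* and *sf1*. The products of the last 3 recognise the 3′ end of introns, *u2af2a* its pyrimidine tract and *sf1* its branch point. For *u2af2a* (15 bases) the longer exon was at 0.704, 0.517 and 0.567 in siblings and 0.454, 0.339 and 0.408 in mutants, and for *sf1* (78 bases) at 0.645, 0.589 and 0.579 against 0.503, 0.423 and 0.460. Both were without overlap. The *zrsr2* intron had no read in 1 mutant library and was at 0.117 and 0.346 in the others, with 0.649, 0.514 and 0.614 in siblings.

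In the p53 signaling and apoptosis list, the retained introns of *gadd45ba* (103 bases), *ccng2* (79 bases) and *baxa* (80 bases) were higher. *gadd45ba*, a growth arrest gene, was at 0.0421, 0.0332 and 0.0678 in siblings and 0.230, 0.264 and 0.189 in mutants. Inclusion in *ccng2*, a cyclin of cell cycle arrest, was 0.0253 ± 0.0248 and 0.211 ± 0.0249, and in *baxa*, a trigger of apoptosis, 0.0143 ± 0.00458 and 0.109 ± 0.059 (SD, n = 3). No overlap was seen in any of these introns. At a 3′ site of *sesn1*, a sestrin of the stress response, the 33-base extension was used at 0.299, 0.196 and 0.288 in siblings and 0.153, 0.0974 and 0.124 in mutants, also separate. The fifth event is the tandem acceptor of *thbs1b*.

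Chromatin and transcription genes carried 8 events. *kat2a*, a histone acetyltransferase, had a 72-base intron at 0, 0.111 and 0.0722 in siblings and 0.437, 0.380 and 0.291 in mutants, and *kdm1a*, a histone demethylase, a 9-base 5′ extension at 0.122 ± 0.0401 and 0.238 ± 0.034 (SD, n = 3). At 3′ sites, *kdm2ab* (30 bases) was at 0.537 ± 0.129 and 0.259 ± 0.076 (SD, n = 3). These 3 did not overlap, nor did *smarce1* and *dnmt3ab*, while *kmt2a* overlapped and *chd8* had libraries without reads. Genes of RNA surveillance, decay and export held 3 events, without overlap in *zcchc8* and with overlap in *cnot3a* and *cnot1*, and the sarcomere and muscle list, with 107 genes in the table, held none.

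At the level of gene counts, 27.9% of all 24809 genes tested were called by edgeR's quasi-likelihood test, 13.6% as higher and 14.3% as lower in mutants. Among host genes with a test, 51 of 143 (35.7%) were called for retained introns (33 higher, 18 lower), 33 of 77 (42.9%) for alternative 5′ sites (22 higher, 11 lower) and 41 of 140 (29.3%) for alternative 3′ sites (31 higher, 10 lower). The count for alternative 5′ sites was 17, 18 and 19 without sibling library 3, mutant library 1 or mutant library 2. Over all genes the calls also fell in these settings, with 2500, 2227 and 2226 higher and 2772, 2638 and 2480 lower. With all libraries they were 3368 and 3556. The median log2 fold change was 0.07 for hosts of retained introns, 0.08 for both other kinds and 0.01 over all genes. The same libraries chose the events, so nothing is read from these shares.

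Of the lists, spliceosome genes were called higher in 52 and lower in 7 of 107 tested (median log2 fold change 0.24), SR and hnRNP genes in 23 and 24 of 114, p53 signaling genes in 22 and 8 of 76, RNA surveillance genes in 15 and 6 of 64, chromatin genes in 39 and 8 of 128, and sarcomere genes in 47 and 12 of 106. Some of these counts fell with a library left out, and so did the calls over all genes in the same settings. Those were 3368 higher and 3556 lower with all libraries, 2612 and 3094 without sibling library 2, and 2500 and 2772 without sibling library 3. Without mutant library 1, 2 or 3 they were 2227 and 2638, 2226 and 2480, and 2663 and 2967. The 21 called RNA surveillance genes became 11 and 9 without sibling library 2 or 3 and 10, 12 and 11 without mutant library 1, 2 or 3. The 47 called chromatin genes became 31 and 30 without mutant library 1 or 2. Among carriers of the events, *baxa* stood at 33.4 ± 2.39 CPM in siblings and 73.8 ± 5.53 CPM in mutants, *taf15* at 170 ± 18.9 and 84 ± 10.1 CPM, and *clk2a* at 101 ± 5.75 and 57.3 ± 4.07 CPM (SD, n = 3). *baxa* was higher in each mutant, *taf15* and *clk2a* lower. *hnrnpr* was at 157 ± 34.4 and 173 ± 7.4 CPM and *rsrp1* at 293 ± 8.71 and 295 ± 17.8 CPM (SD, n = 3), and neither was called. Without sibling library 1, whose *hnrnpr* level was the highest, *hnrnpr* was called higher (log2 fold change 0.34).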

How the data were processed

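Whole-larva RNA of 3 *sart3* smu471 mutant and 3 WT sibling libraries was sequenced by the authors. They deposited read counts per gene without normalization; the submitters' notes list HISAT2 2.0.5, featureCounts 1.5.0-p3 and GRCz11, with no settings. For splicing they ran rMATS (version not given in the sources used here) and deposited only events they called significant, with the reads of each form and the inclusion level of each library packed into 1 cell per group, and with p-values, FDR and inclusion differences of their own comparison, which were not used. 6 deposited FPKM columns were not used either.

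The packed cells give a group but not which library, so values of a group have no order. Separators were missing in 18 packed entries, which were recovered from the deposited inclusion levels within 0.0011; no event was lost. Members were all listed events of 3 kinds. The SE (skipped exon) and MXE (mutually exclusive exon) tables served for the shares with a higher inclusion level, overlap, shared genes and exons inside the events. The SE table also gave the lengths of introns flanking skipped exons. Inclusion was (I / inclusion length) / (I / inclusion length + S / skipping length), with I and S the reads. No test was made on it, because the authors' test on the same libraries chose the events. Gene counts were compared with edgeR 4.0.16 in R 4.3.3 (filterByExpr, TMM, quasi-likelihood, Benjamini-Hochberg at 0.05), with DESeq2 1.42.0 as an alternative; CPM uses TMM-scaled library sizes. Events were handled in Python 3.11.15 with pandas 2.3.3 and numpy 2.4.6. Recovery and tests were tested on simulated data. Nothing says whether libraries came from separate clutches, so p-values measure only the spread between these libraries.

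The members and the gene lists, written from memory, were chosen with earlier results of these data known. Described in full are, among covered events, the 6 largest increases and 4 largest decreases of retained introns, and the 4 and 3 of each kind of splice site; events in list genes, in genes of more than 1 table, with the shortest or longest length, and tandem acceptors may also be named. The other covered decreases of retained introns and the multi-event genes were singled out after their values were seen. 1 gene is not reported here by name; it stays in the counts. Splice site sequences were not analysed here. Depth per library is the total of gene counts. Alternatives were a minimum of 10 reads, a minimum difference of 0.1, raw read shares, 1 event per site, leaving out events within 10 Mb of *sart3*, each value or library left out, and, after seeing the data, a minimum of 20 reads; for gene counts RLE factors, other filters and a replicate block.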

Additional observations from a re-analysis of the deposited data

How the results depend on the processing

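The share of events with higher inclusion in mutants moved little under the alternatives. These reuse the same events and libraries, so they are no independent check. At a minimum of 20 reads the share was 91.7% for retained introns, 60.5% for alternative 5′ sites and 42.9% for alternative 3′ sites. With each value left out in turn it ranged from 86.0% to 89.8% for retained introns, from 61.0% to 64.2% for alternative 5′ sites and from 37.6% to 41.3% for alternative 3′ sites. A minimum of 10 reads in every library left 103 retained introns and 91 alternative 3′ sites, and a minimum of 20 left 84 retained introns, 43 alternative 5′ sites and 63 alternative 3′ sites. The median length of introns with lower inclusion was 791 bases with 10 reads and 848 with 20, instead of 414, and that of 3′ extensions used less was 15 bases under both and 4 bases with 1 event per site, instead of 8. Without division by form lengths every event kept its direction. In each library both measures rise with the same ratio of reads, so this agreement was nearly fixed in advance. Long introns and extensions gave small differences, such as -0.07 for *arglu1a*, -0.09 for *rbm5* and -0.06 for *rsrp1*.

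Host genes called ranged from 42 to 55 for retained introns, from 17 to 32 for alternative 5′ sites and from 33 to 41 for alternative 3′ sites with each library left out. Calls over all genes ranged from 2226 higher and 2480 lower without mutant library 2 to 3480 and 3605 without sibling library 1. Same-numbered libraries had correlations of 0.0643, 0.0284 and -0.107, and differently numbered ones lay between -0.107 and 0.0835. The values were centred within each small group, which forces such correlations to balance. A pairing by number was therefore neither shown nor excluded. With the replicate block 47, 25 and 40 hosts were called in place of 51, 33 and 41. Over all genes 2869 were then higher and 3072 lower. Among named genes, 4 lost the expression call under at least 1 alternative and 6 gained it, and none reversed. The limit of FDR under 0.01 and the naming of events by their FDR were not run, since those columns hold the authors' comparison, nor was the splice site motif, for which no sequence was used here. Depth limits most the 136 events with fewer than 10 reads in a library, 53 of which had a library without reads.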

Other observations

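Some genes carried events of more than 1 kind. Over all genes, 1072 of 37898 had a deposited skipped exon event, and 24809 had enough reads for an expression test. Genes need reads to be listed at all, so nothing is read from the shares that follow. Of the genes with a retained intron, 16 of 149 (10.7%) also had a deposited skipped exon event, compared with 14 of 78 (17.9%) for alternative 5′ sites and 30 of 140 (21.4%) for alternative 3′ sites; these are 1.49%, 1.31% and 2.80% of the 1072 genes with a skipped exon event. 12 genes were in at least 2 of the 3 tables, and *tssc4* and *rbm39a* were in all 3. *tssc4* had 6 events, among them a 329-base retained intron at 0.0354, 0.2 and 0.0536 in siblings and 1, 0 and 1 in mutants, with as few as 5 reads in a library. The mutants of this intron lay at both ends of the scale.

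The homologs *trnau1apa* and *trnau1apb* both held retained introns. In *trnau1apa* a 72-base intron was at a mean of 0.116 in siblings and 0.342 in mutants.

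*rps9*, a further gene of the small ribosomal subunit, named here after its values were seen, held a 695-base intron with 54, 3849 and 65 spliced reads in siblings and 28, 25 and 32 in mutants. Nearly all of the sibling spliced reads came from 1 library. The inclusion form had 5, 4 and 5 reads in siblings and 35, 38 and 42 in mutants. Gene counts of *rps9* were 39323 and 18202.

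Within 10 Mb of *sart3* on chromosome 5, where mutants and siblings also differ by selection of the linked alleles, lay 12 events in 9 genes. They include the shortest retained intron, 21 bases in *oclnb* (chr5:26214378-26214398), at 0.906, 0.809 and 0.864 in siblings and at 1 in every mutant, and 3 events of *araf*, a kinase of the MAP kinase cascade. The linked alleles and the loss of *sart3* cannot be told apart there. Spliced reads of the *oclnb* event numbered 27 over the siblings and 0 over the mutants, and whether these 21 bases are an intron was not tested.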
